A study of Homo sapiens with 6 samples.

Results

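The cyclins, the cyclin-dependent kinases (CDKs) and the CDK inhibitors were followed in mRNA that co-purified with cell cycle-dependent, tagged ribosomes. Members were taken by gene symbol. The rule took CCN with a letter and at most 1 digit, and CDK with digits alone. It also took CDKN with a digit and at most 1 letter. Symbols with another ending, such as CDK11A and CDK11B, were left out. This gave 53 of the 16834 genes in the deposited table. They comprise 26 cyclins, 19 CDKs and 8 genes with a CDKN symbol, and CCNP was not analysed here. The 6 libraries come from asynchronous HEK293-T Flp-In cells, a human embryonic kidney line carrying a single integrated copy of ccTaggedRP under the ubiquitous CAG promoter. The construct yields 2 tagged copies of the mouse ribosomal protein RPL10a from 1 transcript. Flag-RPL10a-hCdt carries the CDT1 degron, which targets the tagged protein for degradation from late S phase to M phase. HA-RPL10a-hGem carries the Geminin degron, which targets it for degradation from late G1 to early S phase. The 3 Flag-IPs and the 3 HA-IPs, immunoprecipitations with antibodies against the respective tag, therefore come from the same line, share the same transgene and differ in the antibody. According to the paper, the cells used for immunoprecipitation were grown with hygromycin B. The labels number replicates 1, 2 and 3 within each tag and do not say whether these were separate cultures, so p-values measure the spread between these libraries, which may be technical. No lysate before immunoprecipitation and no untagged control was analysed here.

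Cyclins bind and activate CDKs, and successive cyclins define the phases of the cycle. D and E cyclins act with CDK4, CDK6 and CDK2 in G1 and at entry into S phase, A cyclins act in S and G2, and B cyclins with CDK1 drive mitosis. Inhibitors of the CIP/KIP family bind cyclin-CDK complexes and those of the INK4 family bind CDK4 and CDK6. A further branch of both families serves transcription, where CDK7 with CCNH, CDK8 or CDK19 with CCNC, CDK9 with CCNT1 or CCNT2, and CDK12 or CDK13 with CCNK phosphorylate RNA polymerase II or act in the Mediator complex. HEK293-T cells express a viral T antigen that binds the p53 and RB proteins, which limits them as a model of inhibitor expression.

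Many mRNAs of mitosis share promoter elements, the cell cycle genes homology region (CHR), bound by the DREAM and MuvB complexes, and the CCAAT box, bound by NF-Y. The promoter windows of 4 members classed with the G2/M transcripts are shown because these mRNAs gave different calls between the IPs: CCNB1 was higher in the HA-IPs, CDKN3 was higher in the Flag-IPs, and CCNB2 and CDK1 did not pass the test. Each window runs from 250 bases before to 50 bases after the RefSeq start site (GRCh38.p14), 5′ to 3′, with matches to CHR (TTTGAA or TTCGAA) or CCAAT on either strand in capitals.
CCNB1, chr5:69166900-69167199, plus strand: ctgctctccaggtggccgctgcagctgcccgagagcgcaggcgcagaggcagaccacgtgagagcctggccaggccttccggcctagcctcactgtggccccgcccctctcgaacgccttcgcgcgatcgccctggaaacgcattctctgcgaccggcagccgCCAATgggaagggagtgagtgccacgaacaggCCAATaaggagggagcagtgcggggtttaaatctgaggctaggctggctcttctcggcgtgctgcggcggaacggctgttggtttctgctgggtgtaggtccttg
CCNB2, chr15:59104896-59105195, plus strand: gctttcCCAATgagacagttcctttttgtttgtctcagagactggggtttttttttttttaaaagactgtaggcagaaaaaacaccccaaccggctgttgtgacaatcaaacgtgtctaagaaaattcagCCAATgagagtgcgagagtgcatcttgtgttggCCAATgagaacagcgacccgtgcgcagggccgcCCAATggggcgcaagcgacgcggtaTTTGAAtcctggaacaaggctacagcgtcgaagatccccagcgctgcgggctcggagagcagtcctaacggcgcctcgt
CDK1, chr10:60778081-60778380, plus strand: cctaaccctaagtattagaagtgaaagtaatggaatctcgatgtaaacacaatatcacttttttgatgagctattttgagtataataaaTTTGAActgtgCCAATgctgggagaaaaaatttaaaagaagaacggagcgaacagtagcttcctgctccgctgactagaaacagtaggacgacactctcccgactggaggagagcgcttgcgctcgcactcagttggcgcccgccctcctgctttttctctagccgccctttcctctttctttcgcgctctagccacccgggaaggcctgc
CDKN3, chr14:54396757-54397056, plus strand: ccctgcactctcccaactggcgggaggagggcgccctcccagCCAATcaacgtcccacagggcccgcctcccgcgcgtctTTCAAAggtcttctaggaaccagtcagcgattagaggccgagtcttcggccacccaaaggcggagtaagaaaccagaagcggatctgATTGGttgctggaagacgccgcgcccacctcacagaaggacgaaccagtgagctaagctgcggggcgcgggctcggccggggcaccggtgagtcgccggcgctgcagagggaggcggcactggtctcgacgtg
CCNB1 holds CCAAT starting 87 and 55 bases before the start site and no CHR letters. CCNB2 holds CCAAT 244, 120, 87 and 54 bases before the start site and TTTGAA 29 bases before it. CDK1 holds TTTGAA 161 and CCAAT 150 bases before the start site shown, which is the start of its gene model, and a second matched window of CDK1 (chr10:60778228-60778527), not shown, held 3 matches to CHR and 2 to CCAAT. CDKN3 holds CCAAT 208 bases before the start site and, on the minus strand and so printed as TTCAAA and ATTGG, CHR letters at 170 and CCAAT at 83 bases before it. No match overlaps another in these 4 windows. Windows were matched for 48 of the 53 members (70 windows). CHR letters stood in 8 of these 70 windows (11.4%) against 16.4% of all 35116 windows, and CCAAT in 27 (38.6%) against 34.6%. CHR letters stood in 1 of 7 windows of the members higher in the HA-IPs and in 2 of 9 windows of those higher in the Flag-IPs. No window was matched for CCND1, CCND2, CCNE2, CDK2 or CDKN1C.

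Between 23174532 and 33429519 reads lay on the listed genes in the Flag-IPs and between 28737728 and 44134833 in the HA-IPs. Values are normalized counts, reads divided by the size factor of the library. The groups stood apart in genes of other cell types. Of 34 heart muscle markers listed, 25 were in the table. Of these, 24 were called higher in the Flag-IPs (limma, adjusted p of at most 0.05), as were 7.1% of all genes. The 25 summed to 79260 to 170125 normalized counts in the Flag-IPs against 4143 to 18537 in the HA-IPs. CSRP3 and TBX5 were listed at 0 in at least 1 library. CASQ2, TBX5, the endothelium marker TEK and the kidney marker PAX8 had under 10 normalized counts in every HA-IP. They may be in the table only through the Flag-IPs, so their direction is no separate support. Of 11 fibroblast markers listed, 10 were in the table. Of these, 7 were higher in the Flag-IPs and 1, FN1, in the HA-IPs, beside 7.1% and 5.79% of all genes. Their sums were 41129.9 to 44817 and 37377 to 38936. VIM, which was not called, made up the largest part of these sums (21676 in Flag-IP 1). The sums therefore hide the log2 fold changes of COL1A2, DCN and COL3A1 (-4.82, -4.75 and -3.63). Of 10 endothelium markers listed, 7 were in the table and 4 were higher in the Flag-IPs, with sums of 484 to 581 and 349 to 374. Of 10 markers of the kidney epithelial line, EPCAM and CDH1 were higher in the HA-IPs and the kidney transcription factors PAX8 and PAX2 were higher in the Flag-IPs, with sums of 20707 to 20949 and 22895 to 23242. KRT8, KRT18, EPCAM and CDH1 were detected in every library, whereas PAX8 was listed at 0 in 1 HA-IP. The part of these cells' genes in any member's difference was not tested.

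Across the family, differences between the IPs were small and ran both ways. Fold changes, given as HA-IP minus Flag-IP on the scale of log2(normalized counts + 1), ranged from -0.70 to 0.52 with a median of 0.019, beside a median of -0.0049 over all 16834 genes. With limma and an adjusted p of at most 0.05, 12 of the 53 members differed (22.6%), against 12.9% of all genes. CCNB1, CDK2, CDK6, CDK17 and CDK19 were higher in the HA-IPs, which is 5 of 53 members where 5.79% of all genes were called in that direction. CCNI, CCNY, CCNK, CCNL1, CDK4, CDKN1A and CDKN3 were higher in the Flag-IPs, which is 7 of 53 where 7.1% of all genes were called. Low genes had already been dropped from the deposited table, and no further filter on low values was applied. Of the 53 members, 47 averaged 100 normalized counts or more. The 3 libraries of one IP lay wholly above those of the other for 20 members (37.7%), against 32.2% of all genes, with the HA-IPs above for 13 and the Flag-IPs above for 7 (16.1% of all genes in each direction). In these bulk samples a smaller share of cells with an mRNA and less of that mRNA per cell cannot be told apart.

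**Figure D1:**
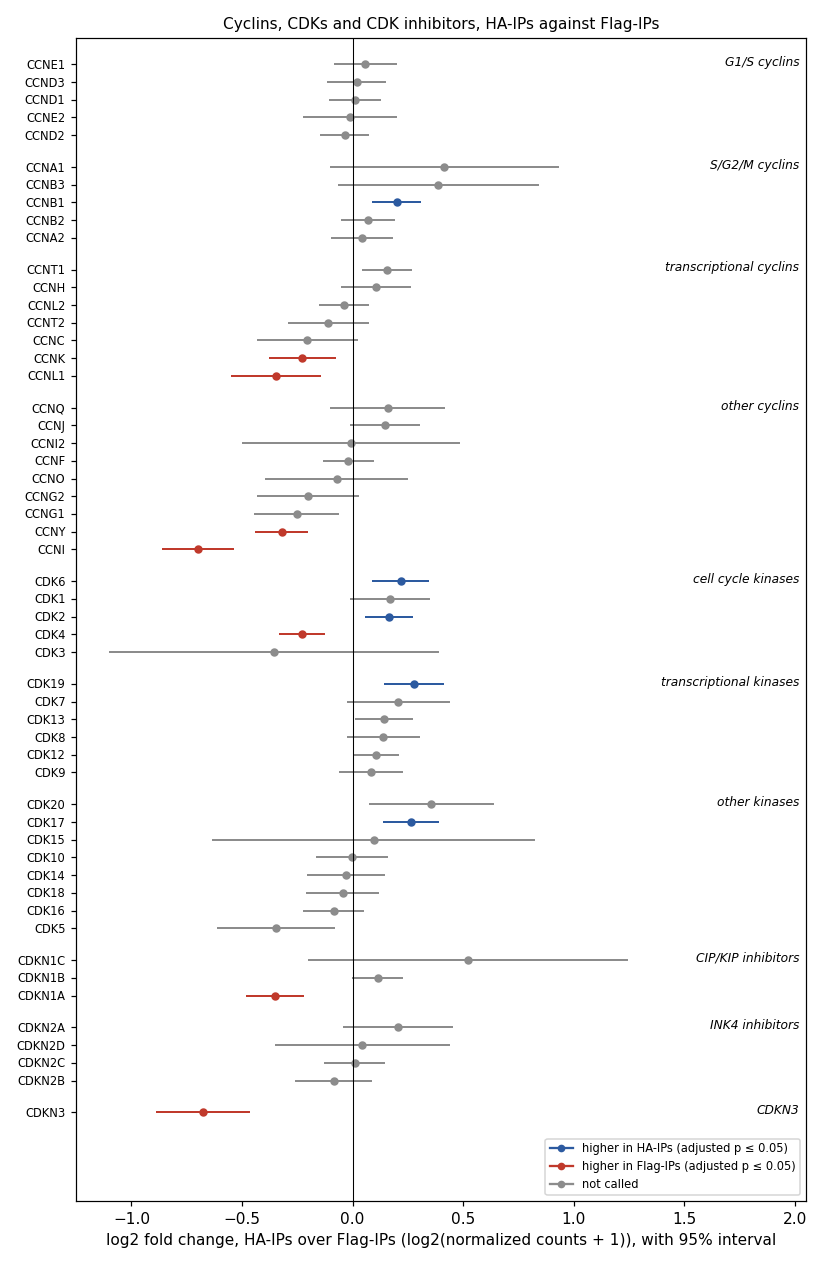
HA-IP minus Flag-IP differences of the 53 members in their groups (x axis, log2 of normalized counts + 1, with points for the estimates and lines for 95% intervals). The 5 members past the threshold on the right and the 7 on the left are spread over most groups, and the widest intervals belong to the members with the fewest reads, such as CDK3, CDK15 and CDKN1C.

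No difference of a G1/S cyclin exceeded the spread between the libraries. None of the 5 was called by limma, edgeR or DESeq2, and limma left 14663 of all 16834 genes uncalled. None had an unadjusted p under 0.05 in limma, where 4587 of all genes did. The groups overlapped for all 5, while 32.2% of all genes had groups that did not. CCND1, the D cyclin that couples growth signals to CDK4 and CDK6, had 3973, 4277 and 4343 normalized counts in Flag-IPs 1, 2 and 3 and 4093, 4323 and 4259 in HA-IPs 1, 2 and 3. Its log2 fold change was 0.010 with a 95% interval of -0.10 to 0.12. CCND2 stood at 3539, 3481 and 3479 in the Flag-IPs, in the same order of replicates, and at 3286, 3506 and 3453 in the HA-IPs. CCND3 gave 1005, 1061 and 1028 against 1039, 1064 and 1032. For all 3 D cyclins the HA-IP values lay among or beside the Flag-IP values. CCNE1, the E cyclin that activates CDK2 at entry into S phase, gave 1439, 1498 and 1476 in the Flag-IPs against 1416, 1603 and 1580.2 in the HA-IPs. CCNE2, its paralog, gave 475, 392.4 and 397 against 419.9, 416 and 412, where Flag-IP 1 was the highest library and the HA-IPs were nearly level. The log2 fold changes of the 5 ranged from -0.036 for CCND2 to 0.058 for CCNE1, and the widest of their 95% intervals, for CCNE2, ran from -0.22 to 0.19. Exons of CCNE2 are shared with INTS8 on the opposite strand over 37.0% of their bases, and whether the counting used strand is not given in the sources used here, so the reads of these genes cannot be told apart.

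Among the S/G2/M cyclins, CCNB1 was higher in the HA-IPs and the other 4 had positive fold changes that did not pass the test. CCNB1 (ENSG00000134057, chr5:69167135-69178245, plus strand; GRCh38, GENCODE), the B cyclin that activates CDK1 for entry into mitosis, had normalized counts of 8272, 8266 and 8637 in the Flag-IPs against 9263, 9533 and 10115 in the HA-IPs. The lowest HA-IP exceeded the highest Flag-IP, with means of 8392 ± 212 and 9637 ± 436 (SD, n = 3 each). The log2 fold change was 0.20 ± 0.049 (SE, limma adjusted p = 0.0226), an increase of 14.8%. The call of CCNB1 was lost with quantile normalization, with the same total per library, in limma without the trend and with edgeR on 5 libraries. CCNB2, the second mitotic B cyclin, gave 1774, 1811 and 1728 in the Flag-IPs against 1922, 1798 and 1850.3 in the HA-IPs. HA-IP 2 fell within the range of the Flag-IPs, and the log2 fold change of CCNB2 was 0.068 with an interval of -0.050 to 0.19. CCNA2, the somatic A cyclin of S phase and G2, gave 4202, 3863 and 3972 against 4435, 3819.9 and 4163. HA-IP 2 was the lowest of all 6 libraries and HA-IP 1 the highest, and the log2 fold change was 0.043 with an interval of -0.091 to 0.18. The sign of CCNA2 depended on scaling, at -0.0076 with quantile normalization and -0.0098 with the same total per library. CCNA1 and CCNB3, cyclins known mainly from the germ line, had the largest fold changes of the group and the fewest reads. CCNA1 gave 55.8, 43.6 and 36.9 normalized counts in the Flag-IPs against 53.6, 73.3 and 55.1 in the HA-IPs. CCNB3 gave 71.4, 61.7 and 104 against 98.1, 96.1 and 110.3. The groups overlapped for both, and the adjusted p was 0.286 for CCNA1 and 0.254 for CCNB3. Without Flag-IP 3, CCNB3 was called higher in the HA-IPs.

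The median log2 fold change was 0.010 for the 5 G1/S cyclins, 0.20 for the 5 S/G2/M cyclins and 0.11 for the 13 transcriptional cyclins and kinases, beside -0.0049 for all genes. The S/G2/M median is the value of CCNB1 itself. CCNA2 and CCNB2 lay below it at 0.043 and 0.068, and CCNA1 and CCNB3, with the fewest reads, lay above it. Per library, the mean over the G1/S cyclins of log2 values centred on each gene was 0.0058, -0.0056 and -0.012 in Flag-IPs 1, 2 and 3 against -0.038, 0.037 and 0.012 in the HA-IPs, so that the groups overlapped. For the S/G2/M cyclins it was -0.061, -0.19 and -0.082 in the Flag-IPs against 0.089, 0.12 and 0.13 in the HA-IPs, with no overlap, where CCNA1 and CCNB3 weigh as much as CCNB1. Scaling each library to the same total moved the median of all genes to -0.057, and the G1/S, S/G2/M and transcriptional medians to -0.043, 0.15 and 0.054. The order of the 3 groups stayed as it was.

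**Figure D2:**
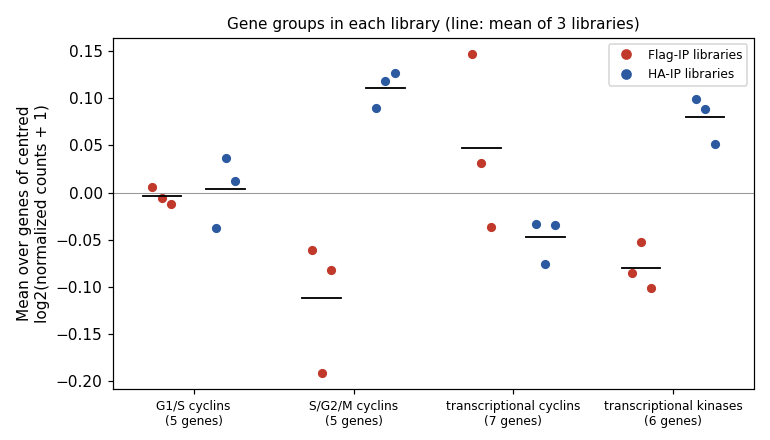
Mean over the genes of each group of log2(normalized counts + 1), centred on each gene's mean over the 6 libraries (y axis), for every library, with a line at the mean of 3 libraries. The 2 groups of libraries separate for the S/G2/M cyclins and the transcriptional kinases and overlap for the G1/S cyclins and the transcriptional cyclins.

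The cell cycle kinases moved in opposite directions, with CDK2 and CDK6 higher in the HA-IPs and CDK4 higher in the Flag-IPs. CDK4 (ENSG00000135446, chr12:57747727-57756013, minus strand), the D cyclin partner that starts RB phosphorylation, had normalized counts of 4629.7, 4613 and 4781 in the Flag-IPs against 4078, 3922 and 3964 in the HA-IPs. Every Flag-IP lay above every HA-IP, and the log2 fold change was -0.23 ± 0.046 (SE, limma adjusted p = 0.00922). CDK6 (ENSG00000105810, chr7:92604921-92836573, minus strand), which shares the D cyclins with CDK4, gave 2009, 1956 and 1896 against 2417, 2223 and 2179, with all HA-IPs above all Flag-IPs. Its log2 fold change was 0.22 ± 0.057 (adjusted p = 0.0299), and it no longer passed the threshold once length and GC content trends had been taken out (0.16, adjusted p = 0.0546), with the same total per library, in limma without the trend, or with edgeR or DESeq2 on 5 libraries. CDK2 (ENSG00000123374, chr12:55966781-55972789, plus strand), the partner of E and A cyclins, gave 3436, 3387 and 3334 in the Flag-IPs against 3674, 3847 and 3872 in the HA-IPs. The groups did not overlap, and the log2 fold change was 0.17 ± 0.047 (adjusted p = 0.0418). The call of CDK2 was lost with quantile normalization, the same total per library, a replicate block, limma without the trend, and edgeR or DESeq2 on 5 libraries. CDK1, the mitotic kinase, gave 3147, 2625 and 2453 in the Flag-IPs against 3155, 2924 and 3131 in the HA-IPs. Flag-IP 1 stood level with the HA-IPs while Flag-IPs 2 and 3 lay below them, and CDK1 did not pass the test (0.17 ± 0.081, adjusted p = 0.202). With the trends of GC content and length removed it did (0.26, adjusted p = 0.00299), as it did without Flag-IP 1. CDK3 was the lowest of this group, with 13.4 to 28.6 normalized counts per library, and 91.4% of its exonic bases belong also to the readthrough gene TEN1-CDK3, so its value is uncertain. CDK4 shares 44.2% of its exonic bases with TSPAN31 on the opposite strand. TSPAN31 had 570.1 normalized counts on average in the Flag-IPs and 482 in the HA-IPs, against 4674 and 3988 for CDK4.

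**Figure D3:**
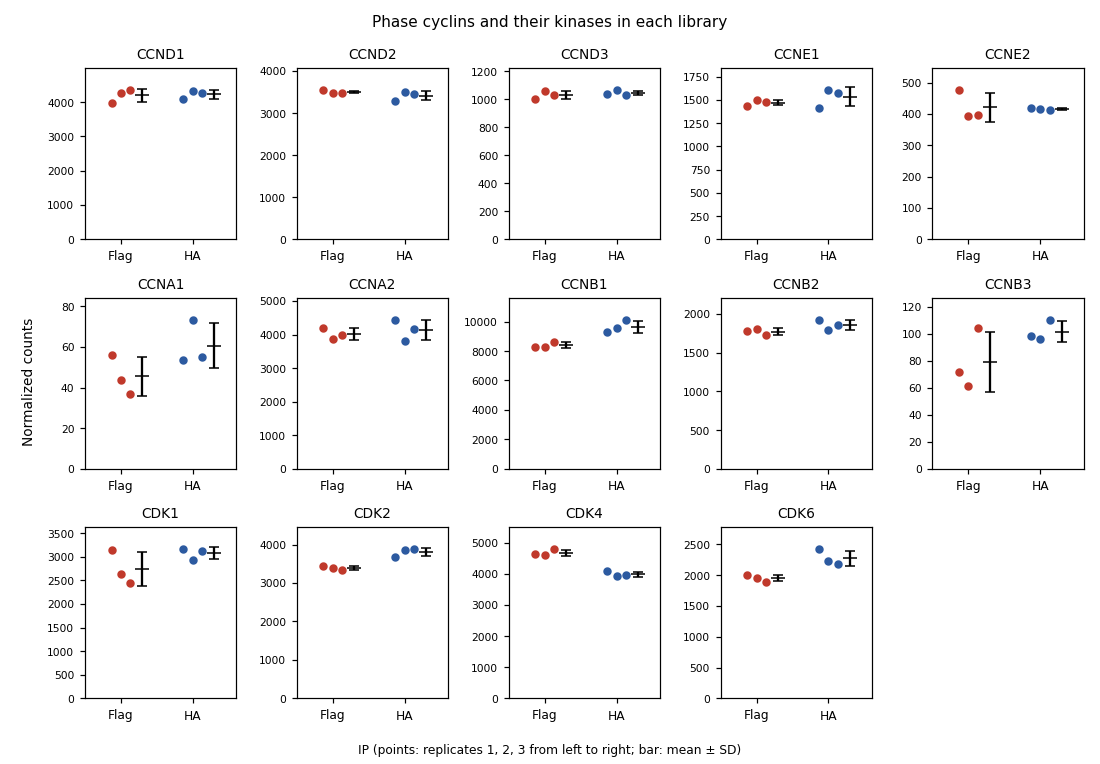
Normalized counts (y axis, from 0) of the D, E, A and B cyclins and of CDK1, CDK2, CDK4 and CDK6 in each Flag-IP and HA-IP library, with the mean ± SD of 3 libraries as a bar. CCNB1, CDK2 and CDK6 lie higher in all HA-IPs and CDK4 lies lower, while the D and E cyclins overlap.

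Of the transcriptional kinases, CDK19 was higher in the HA-IPs. All 6 kinases had a positive fold change (median 0.14), as did 49.0% of all genes. The HA-IPs lay wholly above the Flag-IPs for 5 of the 6, and for 16.1% of all genes. The name rule left out CDK11A and CDK11B, which had negative fold changes of -0.099 and -0.065. Their groups overlapped and neither passed the test (limma adjusted p = 0.604 and 0.463). CDK19 (ENSG00000155111, chr6:110609978-110815958, minus strand), a kinase of the Mediator module, had normalized counts of 948, 964 and 983 in the Flag-IPs against 1184, 1199 and 1129 in the HA-IPs. That is a log2 fold change of 0.28 ± 0.060 (SE, limma adjusted p = 0.0124). CDK8, its paralog in the same module, had a fold change of 0.14 (adjusted p = 0.257) and groups that did not overlap. CDK12, which with CCNK phosphorylates RNA polymerase II during elongation, was the member of this branch with the most reads, at 8213, 8187 and 8527 in the Flag-IPs against 8979, 8828 and 9038 in the HA-IPs. All HA-IPs of CDK12 lay above the Flag-IPs, yet the fold change of 0.11 ± 0.044 did not pass the test (adjusted p = 0.138). CDK13, CDK7 and CDK9 had fold changes of 0.14, 0.21 and 0.083 (adjusted p = 0.135, 0.227 and 0.446). Among them the 2 groups overlapped for CDK9, the kinase of the elongation factor P-TEFb.

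Of the 7 transcriptional cyclins, 2 were higher in the Flag-IPs and none was called in the HA-IPs (median -0.11), beside 7.1% and 5.79% of all genes. CCNL1 (ENSG00000163660, chr3:157146508-157160760, minus strand), a cyclin of the splicing machinery, had normalized counts of 1652, 1356 and 1245 in the Flag-IPs against 1137, 1086 and 1094 in the HA-IPs. Flag-IP 1 stood highest, every Flag-IP lay above every HA-IP, and the log2 fold change was -0.35 ± 0.091 (SE, limma adjusted p = 0.0285). CCNL2, its paralog, gave 4523, 4667 and 4882 against 4412, 4569.7 and 4711, with overlapping groups and a fold change of -0.039 (interval -0.15 to 0.070). CCNK (ENSG00000090061, chr14:99481169-99535044, plus strand), the partner of CDK12 and CDK13, gave 855, 839 and 816 in the Flag-IPs against 726, 734 and 685 in the HA-IPs. All Flag-IPs lay above the HA-IPs, and the fold change was -0.23 ± 0.066 (adjusted p = 0.0444), opposite in sign to those of its kinases. CCNK shares 59.5% of its exonic bases with CCDC85C on the opposite strand, which had a fold change of 0.12 (adjusted p = 0.178). CCDC85C averaged 2334 normalized counts in the Flag-IPs and 2536 in the HA-IPs, against 837 and 715 for CCNK. CCNT1, a partner of CDK9, had a fold change of 0.16 with groups that did not overlap (adjusted p = 0.0652), and CCNT2 one of -0.11 with groups that did. CCNH, the partner of CDK7, had 0.11 and CCNC, the partner of CDK8 and CDK19, had -0.20, and neither passed the test. Higher values in the HA-IPs passed for CCNH and CDK7 with trends removed and for CCNT1 without Flag-IP 3, the fit in which CCNC passed as higher in the Flag-IPs.

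The other cyclins held the largest difference of the family. CCNI (ENSG00000118816, chr4:77047155-77076309, minus strand), a cyclin best known from postmitotic cells such as neurons and podocytes, had normalized counts of 2388, 2235 and 1968 in the Flag-IPs against 1405, 1335 and 1311 in the HA-IPs. The lowest Flag-IP lay well above the highest HA-IP, and the log2 fold change was -0.70 ± 0.072 (SE, limma adjusted p = 3.00e-04), 2197 ± 212 against 1350.4 ± 48.7 (SD, n = 3 each). In the same Flag-IPs the heart muscle markers summed to 170125, 120017 and 79260.1 normalized counts and in the HA-IPs to 5174, 4143 and 18537. CCNI stood in the same order as these sums in the Flag-IPs and not in the HA-IPs, where replicate 3 had the highest sum and the lowest CCNI. The falling order over Flag-IPs 1, 2 and 3 was not particular to CCNI. It was also seen in CCNL1, CCNG1, CCNC, CCNT2 and CDK1, and in CDK2 and CDK6, which were higher in the HA-IPs. A relation to the sums was not tested. CCNY (ENSG00000108100, chr10:35247025-35572669, plus strand), a membrane-anchored cyclin that acts with CDK14 and CDK16, gave 2771, 2848 and 2674 in the Flag-IPs against 2125, 2261 and 2258 in the HA-IPs. Its groups did not overlap either, with a fold change of -0.32 ± 0.052 (adjusted p = 0.00352). Next in size were CCNG1, a p53 target, with a fold change of -0.25 (adjusted p = 0.0783), and CCNG2 with one of -0.20 (adjusted p = 0.231). CCNG1 passed the threshold, higher in the Flag-IPs, with the same total per library, with trends removed and without Flag-IP 3. The 5 remaining genes, CCNF, CCNI2, CCNJ, CCNO and CCNQ, had fold changes between -0.072 and 0.16, and none of them passed the test. CCNF, the founding F-box protein, had 4176 ± 216 normalized counts in the Flag-IPs and 4118 ± 32.7 in the HA-IPs (SD, n = 3 each).

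**Figure D4:**
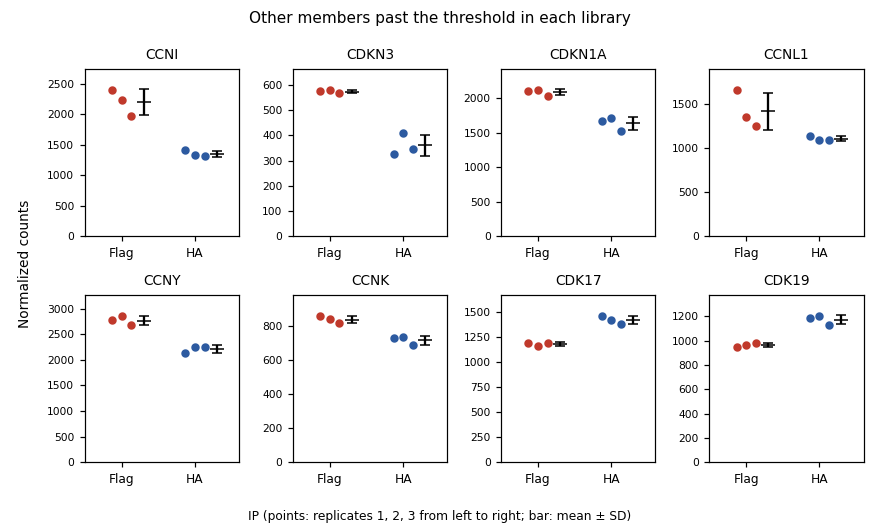
Normalized counts (y axis, from 0) in each library of the 8 called members not plotted among the phase cyclins and their kinases, with the mean ± SD of 3 libraries as a bar. CCNI, CDKN3, CDKN1A, CCNL1, CCNY and CCNK lie higher in all Flag-IPs, and CDK17 and CDK19 lie higher in all HA-IPs.

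Of the 8 other kinases, CDK17 alone was called, where 12.9% of all genes were. CDK17 (ENSG00000059758, chr12:96278261-96400480, minus strand), of the PCTAIRE group with CDK16 and CDK18, had normalized counts of 1192, 1157 and 1189 in the Flag-IPs against 1455, 1417 and 1378 in the HA-IPs. The groups did not overlap, and the log2 fold change was 0.26 ± 0.056 (SE, limma adjusted p = 0.0119). CDK16 had the most reads of all members, with 10302 to 12131 normalized counts per library, and a fold change of -0.086 that did not pass the test (adjusted p = 0.410). CDK18 had -0.044 (adjusted p = 0.756). CDK20, also known as the cell cycle-related kinase, had 0.36 (adjusted p = 0.0922), with the HA-IPs wholly above the Flag-IPs, and CDK5, the kinase activated in neurons by p35, had -0.35 (adjusted p = 0.0825). CDK10 and CDK14 had -0.0040 and -0.030, and CDK15 had too few reads for a narrow interval (-0.63 to 0.82).

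Among the 8 genes with a CDKN symbol, CDKN1A and CDKN3 were higher in the Flag-IPs and none was called in the HA-IPs, beside 7.1% and 5.79% of all genes. CDKN1A (ENSG00000124762, chr6:36676460-36687337, plus strand), which encodes p21, the p53-induced inhibitor of CDK2, had normalized counts of 2106, 2109 and 2029 in the Flag-IPs against 1662, 1711 and 1526 in the HA-IPs. Every Flag-IP lay above every HA-IP, and the log2 fold change was -0.35 ± 0.059 (SE, limma adjusted p = 0.00390), so that the HA-IPs held 0.784 times the Flag-IP level. CDKN1B, which encodes p27, gave 2828, 2697 and 2769.9 against 3126, 2929 and 2919, with the HA-IPs above and a fold change of 0.11 that did not pass the test (adjusted p = 0.180). CDKN1C, an imprinted gene encoding p57, was low, at 13.8 to 30.7 normalized counts per library, with a fold change of 0.52 and an interval of -0.20 to 1.24. CDKN3 (ENSG00000100526, chr14:54396849-54420218, plus strand), a phosphatase that removes the activating phosphate of CDK2 and a transcript known to peak late in the cycle, had 575, 578 and 567 in the Flag-IPs against 326, 408 and 347 in the HA-IPs. Its log2 fold change of -0.68 ± 0.10 (adjusted p = 0.00153) had the opposite sign to that of CCNB1. None of the 4 INK4 inhibitors passed the test, nor did 14663 of all 16834 genes. The groups overlapped for all 4, while 32.2% of all genes had groups that did not. CDKN2A, which encodes p16 and p14ARF, gave 2995, 3971 and 4435 against 4526, 4325 and 4126, where Flag-IP 1 stood apart below the other 5 libraries, and was called higher in the HA-IPs with trends removed and without Flag-IP 3. CDKN2B, CDKN2C and CDKN2D had fold changes of -0.086, 0.0090 and 0.045.

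Related genes were also set against each other within each library, where the size factor cancels. For 15 pairs, chosen after their values had been seen, the log2 ratio of the genes was compared between the IPs. An exact two-sided permutation test of 3 against 3 libraries cannot give a p below 0.1, which it gave for the 5 pairs whose groups did not overlap (0.3 after adjustment over the 15 pairs). The log2 ratio of CDK4 to CDK6 was 1.204, 1.24 and 1.33 in the Flag-IPs against 0.75, 0.82 and 0.86 in the HA-IPs, a difference of -0.45. The ratio of CDKN1A to CDKN1B was -0.43, -0.35 and -0.45 against -0.91, -0.77 and -0.94, a difference of -0.46. These were the pairs that separated furthest. The ratio of CCNB1 to CCND1 was 1.06, 0.95 and 0.99 in the Flag-IPs against 1.18, 1.14 and 1.25 in the HA-IPs, a difference of 0.19. CDK16 to CDK17 and CCNT1 to CCNT2 differed by -0.35 and 0.26. The other 10 pairs overlapped, among them CCNB1 to CCNB2 (0.13), CCNE1 to CCNE2 (0.070) and CDK1 to CDK2 (0.0052).

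**Figure D5:**
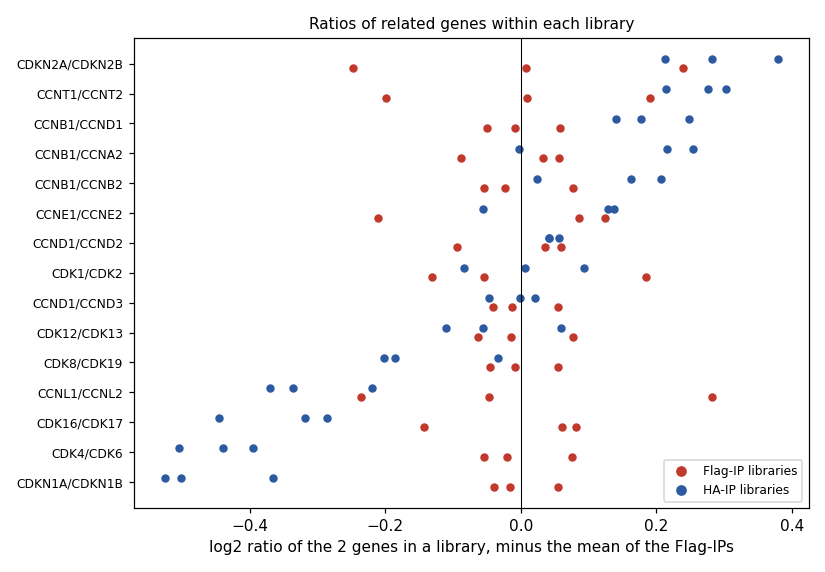
Log2 ratio of the members of 15 pairs in each library (x axis), minus the mean ratio of the 3 Flag-IPs. Flag-IP and HA-IP libraries separate for CDKN1A/CDKN1B, CDK4/CDK6, CDK16/CDK17, CCNB1/CCND1 and CCNT1/CCNT2.

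Of 24 genes outside the family that regulate CDK activity, 4 (16.7%) were called by limma as higher in the HA-IPs, beside 5.79% over all genes, and 0 as higher in the Flag-IPs, beside 7.1%, with a median log2 fold change of 0.015. WEE1, the kinase that holds CDK1 inactive, had normalized counts of 1784, 1928 and 1916 in the Flag-IPs against 2283, 2133 and 2197 in the HA-IPs (0.23 ± 0.056, adjusted p = 0.0199). CDC20, which directs the anaphase-promoting complex at B cyclins in mitosis, had 6083, 5891 and 6011 against 6905, 6953 and 7260.1 (0.23 ± 0.045, adjusted p = 0.00840). FZR1, the activator of that complex in G1, had a fold change of 0.19 (adjusted p = 0.0269), and MED13, which ties the CDK8 module to Mediator, one of 0.15 (adjusted p = 0.0420). Of these 24 genes, 8 had an unadjusted p under 0.05, as did 4587 of all 16834 genes. Among 20 genes with related names outside the family pattern, 15% were called by limma in either direction, near the 12.9% of all genes. CDK5RAP1 was higher in the HA-IPs (0.17, adjusted p = 0.0465) and CDKN2AIPNL and CCNB1IP1 were higher in the Flag-IPs (-0.48 and -0.41, adjusted p = 0.0190 and 0.0287).

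Levels were compared between members per kilobase of the canonical transcript. CCNB1 was the highest member, with 4443 normalized counts per kilobase over the 6 libraries, followed by CDKN2A with 4154, CDK16 with 3508 and CDK4 with 2322. CDK2 and CDK1 stood at 1603 and 1538, and CDK6 stood at 181. CCND1 and CCNA2 stood at 994 and 1483, and CCNE1 and CCNE2 at 769 and 157. The lowest members were CDK15 with 5.09, CDK3 with 12.5 and CDKN1C with 13.3, next to CCNI2, CCNB3 and CCNA1. Across the 53 members, Spearman's rho between canonical transcript length and log2 fold change was 0.034, given as a description, against 0.28 over the 11869 genes of the table that averaged 100 normalized counts or more. The 5 members called in the HA-IPs had canonical transcripts of 2029 to 11663 bases, and the 7 called in the Flag-IPs had 841 to 5068 bases.

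The calls rested unequally on single libraries and settings. CCNI, CCNY, CDKN1A and CDKN3 passed the threshold in each of the 6 fits that left out 1 library, and CDK4 in 5 of them. CCNB1, CDK6, CDK17 and CDK19 passed in 3, CCNL1 in 2, and CDK2 and CCNK in 1. Without Flag-IP 2 or without HA-IP 2 no member was called in the HA-IPs, where 0.612% and 1.59% of all genes were called in that direction and 8 and 7 members had an unadjusted p under 0.05. Without HA-IP 1 only CCNB1 was called in that direction (1.34% of all genes), and without HA-IP 3 only CDK6, CDK17 and CDK19 were (1.89%). Limma without the trend called CCNI and CDKN3 alone, and edgeR on 5 libraries called CCNI, CCNY, CDKN1A and CDKN3. DESeq2 on 5 libraries did not call CCNK and CCNL1, and CCNK was also lost with quantile normalization and a replicate block. Over 17 alternatives none of the 12 changed sign.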

How the data were processed

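RNA was recovered from 3 Flag-IPs and 3 HA-IPs, poly(A)-selected and sequenced. Per the submitters' processing notes, reads were trimmed with Trimmomatic 0.36, mapped to GRCh38 with STAR 2.5.2b and counted per gene with featureCounts of Subread 1.5.2. The strand setting of the counting is not given in the sources used here. The paper states a filter on genes under 10 reads in 3 or more samples. The deposited table still held CASQ2, at 0.71, 0.99 and 3.31 normalized counts in HA-IPs 1, 2 and 3. Its Flag-IP values were 37.7, 46.8 and 39.7, so a gene could stay in the table through 1 IP alone. The authors deposited 1 table of 16834 genes holding a normalized signal per library (read counts divided by a size factor). It also holds the log2 fold change that the authors deposited from their own DESeq2 comparison and their deposited adjusted p-values, which were not used here.

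Values were whole multiples of 1 read within 0.1 read in 100% of cases, which gave the reads per library (23174532 to 44134833). Because the values are not raw counts, all genes were fitted with limma 3.58.1 (R 4.3.3) on log2 values (pseudocount 1), letting the prior variance follow mean expression (trend). The test was two-sided with the Benjamini-Hochberg adjustment over all genes, at an adjusted p of at most 0.05. Alternatives were pseudocounts of 0.1 and 10, a mean of at least 50, 3 other scalings, limma without the trend, a replicate block, each library left out, an adjusted p of at most 0.01, and removal of GC content and length trends by splines with 5 degrees of freedom (GENCODE 44 canonical transcripts, 99.1% of identifiers matched). edgeR 4.0.16 and DESeq2 1.42.0 on the reads of 5 libraries were added after seeing the data. Every member is named, and values per library are given for the D, E, A and B cyclins, CDK1, CDK2, CDK4, CDK6, every called member and the 2 uncalled transcriptional members with the largest means. Values per library of CDKN1B and CDKN2A, and the pairs, were added after their values were seen. The members and lists were chosen with earlier results of these data known. Promoter windows came from RefSeq (GRCh38.p14) and were searched with Python 3.11.15.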

Additional observations from a re-analysis of the deposited data

How the results depend on the processing

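None of the 12 called members changed sign under the alternatives run. The 5 members called higher in the HA-IPs became 3 with DESeq2 and 0 with edgeR on 5 libraries (both chosen after seeing the data), 8 with GC content and length trends removed, 0 in limma without the trend, 3 with quantile normalization, 2 with the same total per library and 0 at an adjusted p of at most 0.01. With edgeR and with limma without the trend, 7 members each had an unadjusted p under 0.05 in that direction. The 7 called higher in the Flag-IPs became 4 with edgeR and 2 in limma without the trend. The 2171 genes called in all became 1419 with DESeq2, 887 with edgeR, 188 in limma without the trend and 704 at an adjusted p of at most 0.01. Leaving out 1 library gave 0 to 7 members in the HA-IPs, 4 to 9 in the Flag-IPs and 620 to 3059 genes in all. Without Flag-IP 2, HA-IP 1, HA-IP 2 or HA-IP 3 the genes called numbered 620, 780, 900 and 1216, and without HA-IP 2 the members called in the Flag-IPs numbered 4. The median of the G1/S cyclins moved to 0.045 with GC content and length trends removed and to -0.043 with the same total per library (-0.0067 to 0.024 leaving out 1 library). That of the S/G2/M cyclins moved to 0.13 with quantile normalization and to 0.15 with the same total (0.16 to 0.23). That of the transcriptional cyclins and kinases moved to 0.079 with trends removed and to 0.054 with the same total (0.076 to 0.11). The median of all members moved to 0.056, 0.044 and -0.034 with trends removed, quantile normalization and the same total (0.0012 to 0.039). The cause of these changes was not tested. The labels do not say whether same-numbered libraries share a culture or lysate, and correlations among 3 libraries per IP cannot decide it. The deviations of same-numbered libraries correlated at -0.16, 0.031 and -0.31, and those of differently numbered libraries at -0.24 to 0.30. A fit with the replicate number as a block called 4 members in the HA-IPs, 6 in the Flag-IPs and 1662 genes in all. Count tests on all 6 libraries were not run. They left out HA-IP 2, where 1 read was worth nearly 1 normalized count, because a check that asks for a step clearly different from 1 did not accept its reads as recovered, although its values too were whole multiples of that step. Depth limits the members with the fewest reads, such as CDK3, CDK15 and CDKN1C, and the 3 libraries per group limit all.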
